A study of Homo sapiens with 14 samples.

Results

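The DNA replication and G1/S genes examined here are 56 genes that load, build and control the replication machinery. They were picked by name from the 59471 gene names of the count files. The rule used no measured value, but earlier results of these data were known when the members were chosen. SCC23 is an established human HNSCC cell line, and polyA RNA from it was sequenced in 14 libraries of 2 experiments. The cells, labelled KMT2D-WT or KMT2D-KO, grew with high glucose or went 6 h without it. Either condition holds 3 KMT2D-WT libraries (1 from experiment 1, 2 from experiment 2) and 4 KMT2D-KO libraries (the lines KO1 and KO2, once in each experiment). Per the labels, cells were transfected with a plasmid for Cas9, GFP and a guide to LacZ or to KMT2D. The paper's methods describe sorting of GFP-positive cells and no cloning of single cells, so each KMT2D-KO line may be a mixture of alleles. The question was whether KMT2D-KO cells, or glucose deprivation, changed the RNA levels of the replication genes.

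Before S phase, the origin recognition complex, CDC6 and CDT1 load MCM helicase rings onto DNA. CDC45 and the GINS complex then turn the rings into active helicases, and polymerases, clamp loaders, nucleases and ligase copy both strands. Many of these genes are transcribed in late G1 under E2F factors, which cyclin E and its kinase help to release, so their RNA is known to rise as cells enter S phase. In bulk RNA, fewer cells in S phase and less RNA of these genes per cell cannot be told apart.

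Promoter sequences are shown for 5 members that were called in a comparison of KMT2D-KO with KMT2D-WT cells, with E2F words in capitals. The sequences are the 150 bases before a RefSeq transcript start (GRCh38.p14). Where RefSeq lists several starts, the first in its table is shown. GCGGGAAA is TTTCCCGC read on the other strand. CDC45 is shown as a member without any of the exact words searched, though its tttggcgg differs from TTTGGCGC in the last letter alone.
UHRF1 promoter, chr19:4909351-4909500, + strand: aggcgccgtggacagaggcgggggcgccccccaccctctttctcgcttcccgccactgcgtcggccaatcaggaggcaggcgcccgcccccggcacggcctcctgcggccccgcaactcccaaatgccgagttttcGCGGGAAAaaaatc
TYMS promoter, chr18:657503-657652, + strand: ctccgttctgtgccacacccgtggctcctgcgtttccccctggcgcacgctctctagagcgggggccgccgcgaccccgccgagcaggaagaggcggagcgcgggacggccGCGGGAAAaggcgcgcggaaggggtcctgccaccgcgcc
CDT1 promoter, chr16:88803639-88803788, + strand: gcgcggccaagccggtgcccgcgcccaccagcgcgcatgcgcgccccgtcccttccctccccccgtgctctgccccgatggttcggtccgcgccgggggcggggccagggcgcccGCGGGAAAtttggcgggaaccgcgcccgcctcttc
E2F1 promoter, chr20:33686386-33686535, - strand: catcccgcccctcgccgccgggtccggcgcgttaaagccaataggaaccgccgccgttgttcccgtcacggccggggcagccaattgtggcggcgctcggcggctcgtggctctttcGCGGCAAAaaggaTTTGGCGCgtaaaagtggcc
CDC45 promoter, chr22:19479770-19479919, + strand: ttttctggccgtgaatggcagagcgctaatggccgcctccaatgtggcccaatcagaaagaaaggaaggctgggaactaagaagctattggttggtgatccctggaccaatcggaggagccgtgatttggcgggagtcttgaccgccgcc

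The words searched were TTTCCCGC, TTTGGCGC, TTTCGCGC and TTTGCCGC on both strands, within 250 bases before each start. RefSeq promoters were matched for 47 of the 56 members, and 17 of these (36.2%) held an E2F word before at least 1 listed start, against 3.40% of all 27305 genes with a promoter. The members not matched in the promoter table used here were CCNE2, DSCC1, E2F8, GINS4, MCM4, MCM5, POLD3, RPA2 and RPA3. The 17 were CDT1, DTL, E2F1, GINS2, GMNN, LIG1, MCM3, MCM6, MCM7, ORC3, PCNA, POLA1, POLA2, POLE, RFC3, TYMS and UHRF1. The word CCAAT, searched the same way, was found for 29 members (61.7%), against 37.0% of all genes. Of 12 matched members that were lower in KMT2D-KO cells kept in glucose, 5 held an E2F word. Upon glucose deprivation the word was found in 2 of 9 matched members that were lower and in 4 of 8 that were higher. A word match is a description of these letters and was not tested as a binding site.

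Levels are given in CPM, counts relative to the library total after TMM scaling, and a member's values are given in the order experiment 1, then experiment 2, with KO1 before KO2 in each experiment. Total counts per library ranged from 15669154 to 62968057. KMT2D was at 265 to 279 CPM in KMT2D-WT cells kept in glucose, at 182 and 184 CPM in line KO1 and at 322 and 373 CPM in line KO2. Upon deprivation it was at 230.3 to 239 CPM in KMT2D-WT cells and at 19.9, 190.1, 152 and 145 CPM in KMT2D-KO cells. KMT2D log2 fold changes were -0.02 with and -0.90 without glucose (edgeR adjusted p = 0.967 and 0.247), and since mutations made by Cas9 need not lower the RNA, these levels do not check the labels. TXNIP, a glucose-induced gene, fell upon deprivation from between 119 and 136 CPM to between 5.15 and 6.27 CPM in KMT2D-WT cells. In KMT2D-KO cells it fell from between 44.8 and 67.4 CPM to between 3.19 and 9.71 CPM. With glucose, TXNIP was thus lower in KMT2D-KO than in KMT2D-WT cells, without overlap. All 9 squamous epithelial markers reached 1 CPM in some library, and none of the 5 leukocyte markers did. KRT6A reached it in the deprived KO1 library of experiment 1 alone (1.13 CPM). The summed squamous markers were at 2080 to 2270 CPM in KMT2D-WT and 1310 to 1760 CPM in KMT2D-KO cells kept in glucose, and at 1700 to 1880 and 1800 to 3570 CPM upon deprivation. With glucose, ITGB4 made up most of the sum (means of 1394 CPM in KMT2D-WT and 798 CPM in KMT2D-KO cells). KRT14 was also lower in KMT2D-KO cells (217 and 78.3 CPM), but KRT5 (20.8 and 64.7 CPM) and CDH1 (55.7 and 97.2 CPM) were higher. Summed fibroblast markers were at 5.75 to 7.08 and 12.5 to 26.7 CPM in glucose, and at 3.26 to 5.57 and 7.36 to 14 CPM upon deprivation, with PDGFRB, DCN and LUM below 1 CPM throughout. Of the 4 endothelial markers, CDH5 alone reached 1 CPM. The part of these markers in the results below was not tested.

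Some libraries stood apart. In experiment 2, the glucose-deprived libraries KO1 and KO2 were nearly alike, with a chi-square per gene of 1.78 between them. The glucose-deprived WT1 and WT2 libraries of the same experiment gave 1.71, and the other 4 pairs within a group and experiment gave 25.9 to 83.0. The genes around RRM2 placed the deprived library labelled KO1 of experiment 2 with line KO2. Over the 33 other tested genes within 5 Mb of RRM2, the median log2 ratio to KMT2D-WT was 0.14, 0.02 and 0.09 in the 3 other KO1 libraries and -0.75 to -0.60 in the KO2 libraries, and it was -0.63 in the library labelled KO1. Results upon deprivation are therefore also given with each close pair summed into 1 library. The glucose-deprived KO1 library of experiment 1, with its low KMT2D level, also stood apart, and without it more members were called.

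In cells kept in glucose, replication genes were lower in KMT2D-KO than in KMT2D-WT cells more often than higher. Summed over the 56 members, the level was 7496, 7092 and 7076 CPM in KMT2D-WT libraries and 6358, 6606, 5813 and 6166 CPM in KMT2D-KO libraries, and the groups did not overlap. Abundant genes weigh most in this sum. RRM2 had a mean of 721 CPM in KMT2D-WT and 379 CPM in KMT2D-KO cells, while MCM4 had 387 and 517 CPM. By edgeR's quasi-likelihood test (Benjamini-Hochberg adjusted p under 0.05 over all genes), 14 of the 56 members fell (25.0%) and 4 rose (7.14%). Over all 20423 genes tested, 11.7% fell and 13.0% rose. The median log2 fold change was -0.17 over the members and 0.02 over all genes. All 56 members passed the filter on low counts in this and every other main comparison. For refits, here and below, the share of all genes called is not given, so their counts describe the members alone. Leaving out 1 library gave between 5 and 17 members that fell and between 0 and 5 that rose. The lowest counts came without the KMT2D-WT library of experiment 1. Leaving out the KMT2D-WT libraries WT1 and WT2 of experiment 2 gave 8 and 9 falls with 2 rises each, and leaving out KO2 of experiment 2 gave 15 falls and 2 rises.

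**Figure D1:**
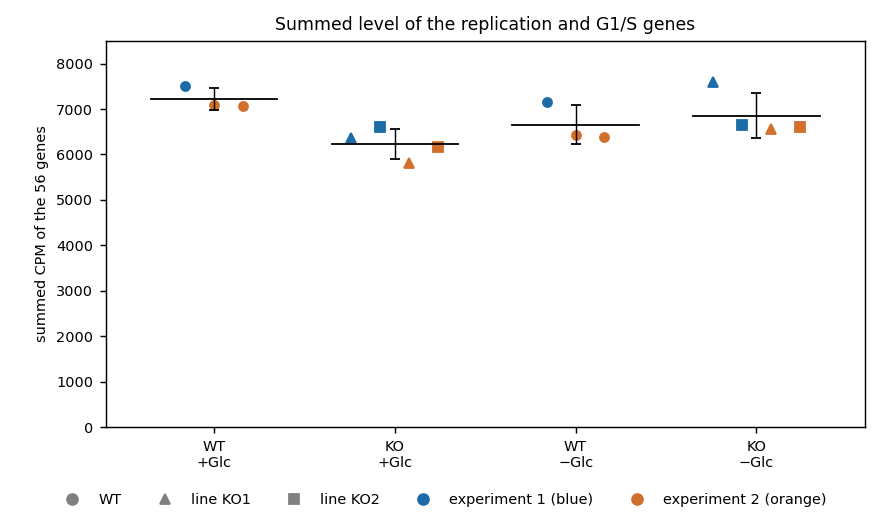
Summed level of the 56 genes (CPM, axis from 0) in each library of KMT2D-WT (WT) and KMT2D-KO (KO) cells kept in glucose (+Glc) or deprived of it (−Glc); points are libraries, horizontal lines group means and error bars SD (n = 3 for WT, n = 4 for KO). With glucose all 4 KO libraries (5813 to 6606 CPM) lay below the 3 WT libraries (7076 to 7496 CPM), and without glucose the KO (6560 to 7591 CPM) and WT (6382 to 7163 CPM) libraries overlapped. As plain shares of counts, without TMM scaling, the deprived KO libraries lay below the deprived WT libraries.

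Upon glucose deprivation, KMT2D-KO cells were again compared with KMT2D-WT cells, and calls went in both directions. The summed level was 7163, 6429 and 6382 CPM in KMT2D-WT cells and 7591, 6658, 6560 and 6595 CPM in KMT2D-KO cells, and the groups overlapped. That overlap rests on TMM scaling, with factors of 1.034 to 1.091 in KMT2D-WT and 0.8625 to 0.8931 in KMT2D-KO libraries. As a plain share of counts, members made up 0.696 to 0.741% in KMT2D-WT and 0.574 to 0.670% in KMT2D-KO libraries, without overlap. The fits also used TMM scaling, so small fold changes in this condition depend on it. In edgeR's test 13 members fell (23.2%) and 9 rose (16.1%), against 24.9% and 25.9% of all 16782 genes tested. The members' shares were thus below the background in both directions, and their median log2 fold change was -0.00382, beside 0.00288 for all genes. With each close pair summed, 5 members fell (ORC2, E2F8, UHRF1, CDC45 and MCM5) and 4 rose (RFC1, MCM4, GINS2 and CDT1), all among the members called before. Leaving out the KO1 library of experiment 1 gave 24 falls and 18 rises, and leaving out the one labelled KO1 of experiment 2 gave 8 and 7. Leaving out any KMT2D-WT library gave 8 falls and 7 rises.

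**Figure D2:**
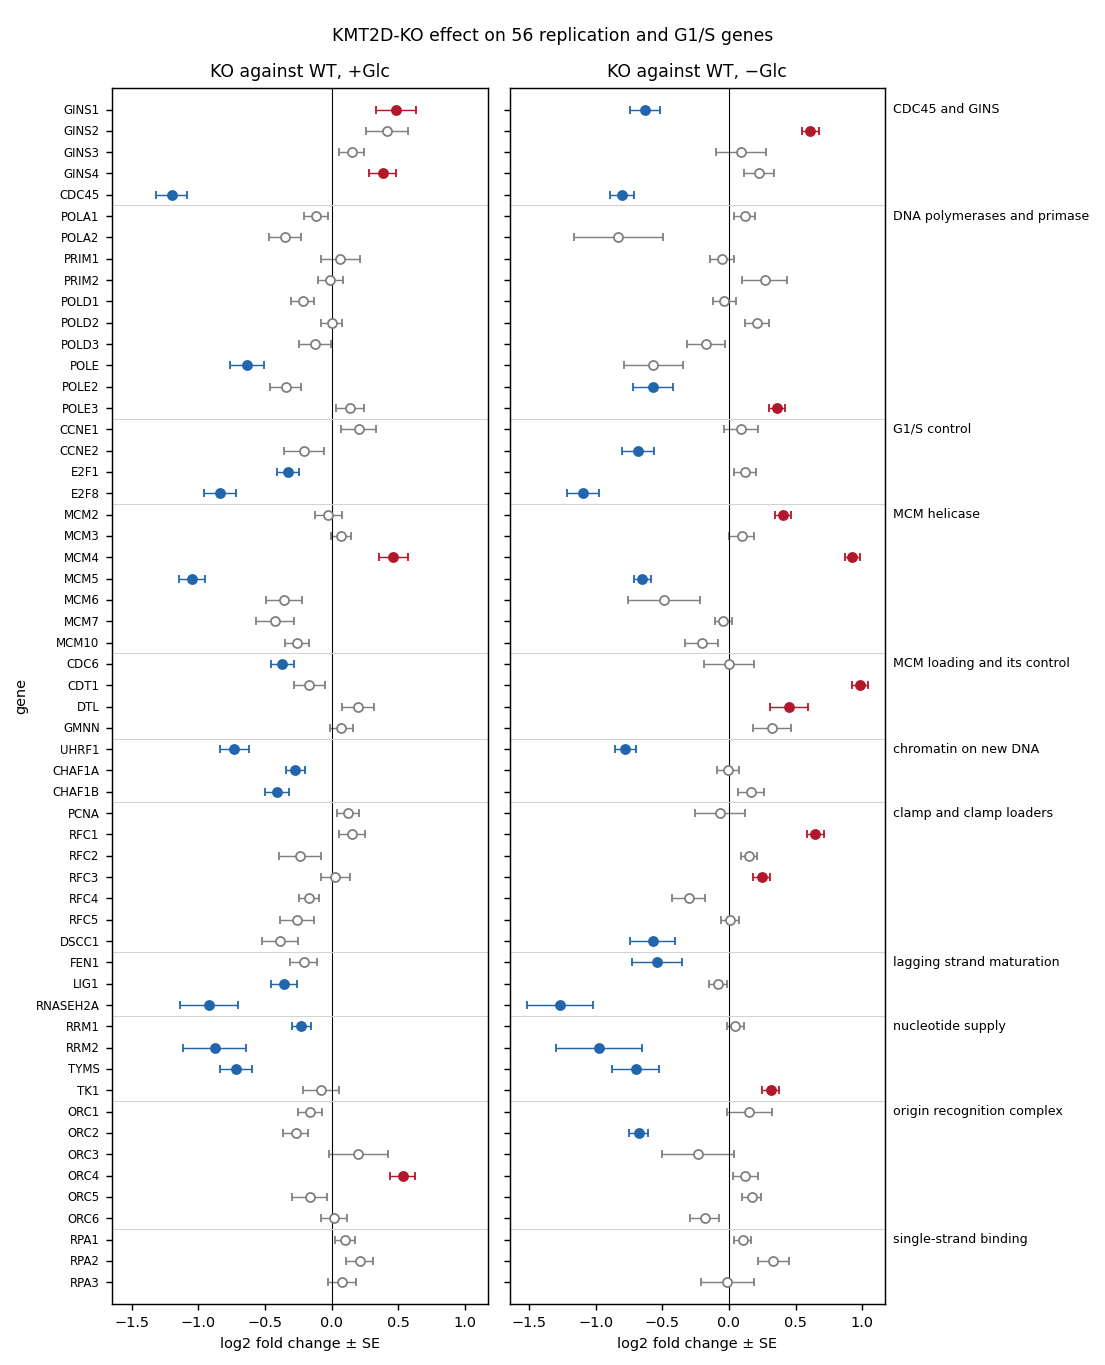
Log2 fold change (± SE) of KMT2D-KO against KMT2D-WT cells for the 56 genes, grouped by role, with glucose (left, +Glc) and without (right, −Glc); filled blue points fell and filled red points rose by edgeR's test, and open points did not pass. CDC45 (-1.20) and MCM5 (-1.05) lie farthest to the left with glucose, and CDT1 (0.98) and MCM4 (0.93) farthest to the right without it.

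In the account by role that follows, fold changes compare KMT2D-KO with KMT2D-WT cells under the glucose condition named. There, rose and fell mean higher and lower in KMT2D-KO than in KMT2D-WT cells, not a change upon deprivation. Few genes of origin recognition were called. ORC4, a subunit of the origin recognition complex, was at 15.3, 29.9 and 29.2 CPM in KMT2D-WT and at 22.5, 24.0, 40.0 and 42.3 CPM in KMT2D-KO cells kept in glucose, above KMT2D-WT within each experiment (log2 fold change 0.53, SE 0.10, edgeR adjusted p = 0.00399). It was the only one of the 6 ORC genes called there. ORC1, the subunit that comes and goes with the cell cycle, gave a log2 fold change of -0.16 (edgeR adjusted p = 0.237) with glucose and 0.15 (adjusted p = 0.478) without. In deprived cells ORC2, another subunit, was the ORC gene called, and it was lower in KMT2D-KO cells. It was at 33.6, 57.5 and 55.2 CPM in KMT2D-WT and at 19.4, 19.7, 39.0 and 36.5 CPM in KMT2D-KO cells. The groups were apart within each experiment, with a log2 fold change of -0.68 (SE 0.07, edgeR adjusted p = 0.000408).

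CDC6 and CDT1, the loaders of the MCM ring, had different patterns. CDC6 was at 152, 197 and 180.3 CPM in KMT2D-WT and at 135, 124, 138 and 134 CPM in KMT2D-KO cells kept in glucose, and the groups did not overlap (log2 fold change -0.37, SE 0.09, edgeR adjusted p = 0.0153). Upon deprivation its log2 fold change was 0.00 (SE 0.19), with the KO1 library of experiment 1 at 163 CPM and the other 3 KMT2D-KO libraries at 99.9 to 109 CPM.
CDT1 was at 129, 124 and 115 CPM in KMT2D-WT and at 93.7, 121, 99.7 and 122 CPM in KMT2D-KO cells kept in glucose, and the groups overlapped (log2 fold change -0.17, SE 0.11, edgeR adjusted p = 0.341). In deprived cells CDT1 was at 118, 86.8 and 81.7 CPM in KMT2D-WT and at 214, 229.8, 175 and 177 CPM in KMT2D-KO cells. Every deprived KMT2D-KO library lay above every deprived KMT2D-WT library (log2 fold change 0.98, SE 0.06, edgeR adjusted p = 6.54e-05). GMNN, which encodes the CDT1 inhibitor geminin, gave log2 fold changes of 0.07 with glucose and 0.32 without (edgeR adjusted p = 0.603 and 0.101). DTL, which directs CDT1 to degradation during S phase, was higher in deprived KMT2D-KO than in deprived KMT2D-WT cells (0.45, SE 0.14, edgeR adjusted p = 0.0343). With glucose its log2 fold change was 0.20 (edgeR adjusted p = 0.279). With close pairs summed, the rise of CDT1 passed (0.98, edgeR adjusted p = 0.0193) and that of DTL did not.

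Among the MCM helicase genes, whose products form the 6-part ring that unwinds DNA, MCM5 fell and MCM4 rose. MCM5 was at 381, 297 and 295 CPM in KMT2D-WT and at 169, 208, 129 and 151 CPM in KMT2D-KO cells kept in glucose. Without glucose MCM5 was at 404, 289.5 and 295 CPM and at 252, 239, 195 and 198 CPM. The groups did not overlap in either condition, and the log2 fold changes were -1.05 (SE 0.10, edgeR adjusted p = 0.000176) and -0.65 (SE 0.06, edgeR adjusted p = 0.000299).
MCM4 was at 333, 415 and 411 CPM in KMT2D-WT and at 458, 535, 476 and 599.6 CPM in KMT2D-KO cells kept in glucose. Upon deprivation the values were 298, 338 and 337 CPM against 538, 562, 675 and 663 CPM. The groups were again apart in both conditions, with log2 fold changes of 0.46 (SE 0.11, edgeR adjusted p = 0.014) and 0.93 (SE 0.05, edgeR adjusted p = 5.68e-05).
MCM2 was higher in deprived KMT2D-KO than in deprived KMT2D-WT cells (0.41, SE 0.06, edgeR adjusted p = 0.00142) and was at -0.02 with glucose (adjusted p = 0.896). Of its annotated exonic bases 23.6% are shared with another gene, and counts took no account of strand. MCM10, which helps to activate the helicase, gave -0.26 and -0.21 (edgeR adjusted p = 0.0668 and 0.199). MCM3, MCM6 and MCM7 were not called in either condition.

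CDC45 and the 4 GINS genes complete the active helicase, and they did not move together. CDC45 was at 157, 98.0 and 106 CPM in KMT2D-WT and at 54.9, 70.1, 42.0 and 51.3 CPM in KMT2D-KO cells kept in glucose. Without glucose CDC45 was at 135, 97.9 and 95.4 CPM and at 84.4, 71.5, 56.2 and 56.3 CPM. Groups were apart in both conditions, and CDC45 fell by 1.20 on the log2 scale with glucose (SE 0.11, edgeR adjusted p = 0.000185) and by 0.80 without (SE 0.09, edgeR adjusted p = 0.000513).
GINS1 went in opposite directions. It was at 43.6, 51.6 and 57.1 CPM in KMT2D-WT and at 52.9, 78.2, 63.9 and 80.2 CPM in KMT2D-KO cells kept in glucose (log2 fold change 0.48, SE 0.15, edgeR adjusted p = 0.0467), above KMT2D-WT within each experiment but overlapping over all libraries. This call was lost in 4 of the 7 fits that left out 1 library. In deprived cells GINS1 was at 42.7, 44.3 and 43.4 CPM in KMT2D-WT and at 33.0, 27.2, 27.6 and 27.0 CPM in KMT2D-KO cells, with no overlap (log2 fold change -0.63, SE 0.11, edgeR adjusted p = 0.00339), and with close pairs summed the fall did not pass (-0.58, edgeR adjusted p = 0.0847). GINS2 was higher in deprived KMT2D-KO than in deprived KMT2D-WT cells (0.61, SE 0.07, edgeR adjusted p = 0.000425) and was at 0.42 with glucose (adjusted p = 0.0889). GINS4 rose with glucose (0.38, SE 0.10, edgeR adjusted p = 0.0232), and GINS3 was not called in either condition. The GINS4 call was also lost in 4 of the 7 fits that left out 1 library. Of the exonic bases of GINS4, 23.4% are shared with other genes.

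**Figure D3:**
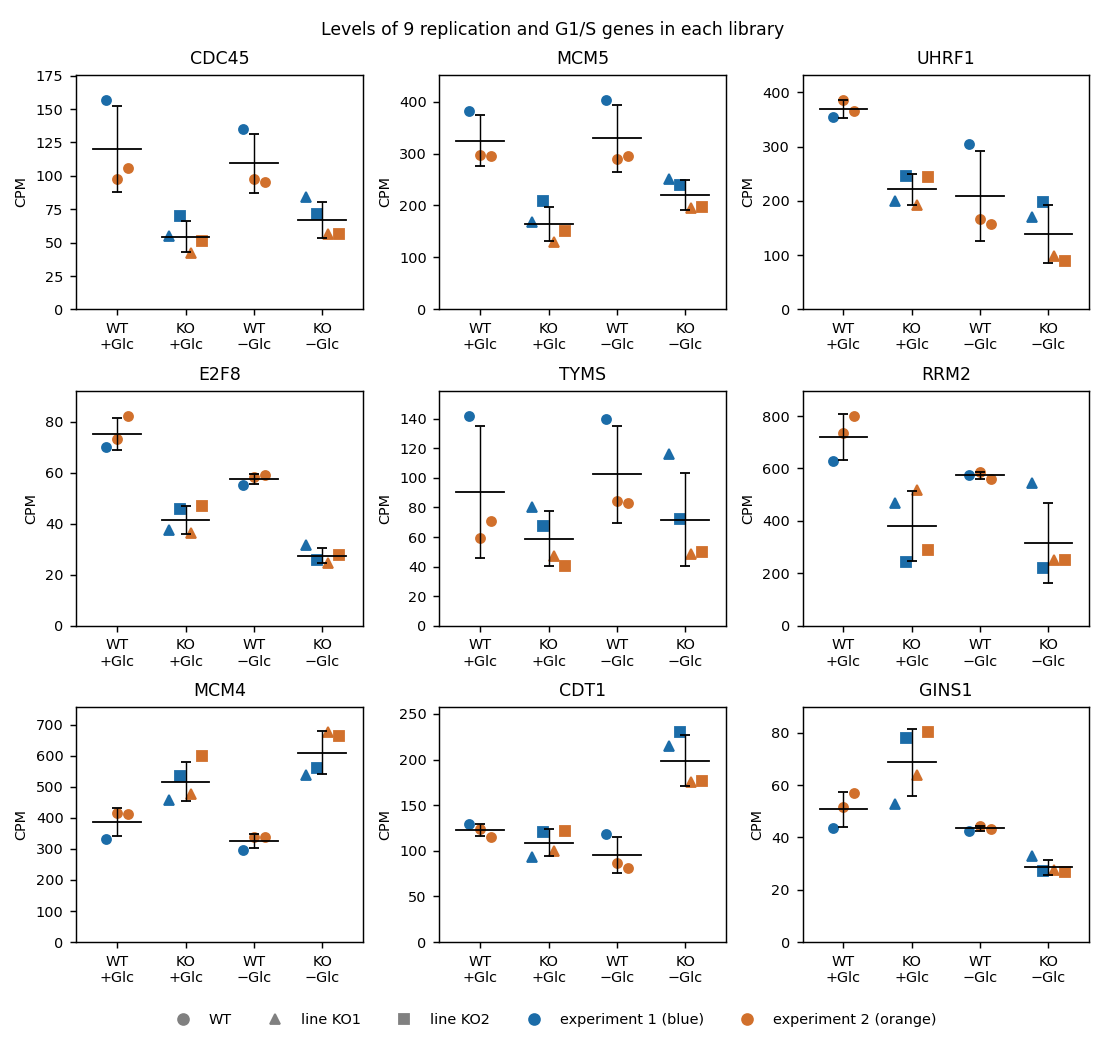
Levels (CPM, axes from 0) of 9 members in each library of KMT2D-WT (WT) and KMT2D-KO (KO) cells with (+Glc) and without (−Glc) glucose; points are libraries (marked by line and experiment), horizontal lines group means and error bars SD (n = 3 for WT, n = 4 for KO). In the KO groups RRM2 separates by line with glucose (467 and 516 CPM in KO1, 242 and 291 CPM in KO2), and CDT1 is high in the deprived KO libraries alone (175 to 229.8 CPM).

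PCNA, the clamp that tethers polymerases to DNA, was at 258, 261 and 253 CPM in KMT2D-WT and at 315, 279, 278 and 257 CPM in KMT2D-KO cells kept in glucose (log2 fold change 0.12, SE 0.08, edgeR adjusted p = 0.34), and gave -0.07 upon deprivation (SE 0.19, adjusted p = 0.778). No clamp or loader gene passed with glucose. RFC1, the large subunit of the clamp loader, rose upon deprivation from 104, 148 and 150.1 CPM in KMT2D-WT to 146, 162, 252 and 246 CPM in KMT2D-KO cells, above KMT2D-WT within each experiment (0.65, SE 0.06, edgeR adjusted p = 0.000256). RFC3, a small subunit, rose as well (0.25), whereas DSCC1, of the alternative loader that serves sister chromatid cohesion, fell (-0.57).
POLE, the catalytic subunit of the leading strand polymerase, was at 264, 254 and 243 CPM in KMT2D-WT and at 143, 189, 136 and 187 CPM in KMT2D-KO cells kept in glucose. The groups did not overlap, and it was the 1 of 10 polymerase and primase genes called (log2 fold change -0.63, SE 0.13, edgeR adjusted p = 0.00766). Upon deprivation POLE was at -0.57 (SE 0.22, edgeR adjusted p = 0.0694), while its partner POLE2 fell (-0.57, SE 0.15, edgeR adjusted p = 0.017) and POLE3 rose (0.36, SE 0.06, edgeR adjusted p = 0.00255). POLA1, which starts each new strand with primase, gave -0.12 and 0.12 (edgeR adjusted p = 0.408 and 0.26). RPA1, the large subunit of the single-strand binding protein, gave 0.10 in both conditions (edgeR adjusted p = 0.383 and 0.204), and RPA2 and RPA3 were not called either.

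Of the 3 lagging strand genes, LIG1, the ligase that seals Okazaki fragments, was at 77.0, 47.3 and 50.5 CPM in KMT2D-WT and at 54.1, 59.7, 35.5 and 43.0 CPM in KMT2D-KO cells kept in glucose. It was lower within each experiment (log2 fold change -0.36, SE 0.10, edgeR adjusted p = 0.025) and at -0.08 upon deprivation (adjusted p = 0.341). FEN1, the flap nuclease, was lower in deprived KMT2D-KO than in deprived KMT2D-WT cells (-0.54, SE 0.19, edgeR adjusted p = 0.047). This call was lost when any deprived KMT2D-WT library, or either deprived KMT2D-KO library of experiment 2, was left out. RNASEH2A, which removes ribonucleotides from DNA, fell in both conditions (-0.92 and -1.27, edgeR adjusted p = 0.0147 and 0.00539). It was listed at 0.711 to 4.44 CPM over all libraries, and 53.3% of its exonic bases are shared with THSD8, so its counts are uncertain.

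Of the 4 nucleotide supply genes, 3 fell in KMT2D-KO cells kept in glucose. RRM2, the inducible subunit of ribonucleotide reductase, was at 627, 735 and 799.9 CPM in KMT2D-WT and at 467, 242, 516 and 291 CPM in KMT2D-KO cells. The groups were apart (log2 fold change -0.88, SE 0.24, edgeR adjusted p = 0.0265), and line KO2 was below line KO1 in both experiments. The RRM2 call with glucose was lost when any KMT2D-WT library was left out. Taken alone, KO1 gave -0.50 (edgeR adjusted p = 0.000491) and KO2 gave -1.38 (edgeR adjusted p = 1.5e-08).
Upon deprivation RRM2 was at 574, 588 and 559.8 CPM in KMT2D-WT and at 544, 221, 250.3 and 250.2 CPM in KMT2D-KO cells (log2 fold change -0.97, SE 0.32, edgeR adjusted p = 0.0409). The KO1 library of experiment 1 was close to the KMT2D-WT libraries, and the library labelled KO1 of experiment 2 was at the level of KO2. With close pairs summed the call did not pass (-0.84, edgeR adjusted p = 0.241).
TYMS, the thymidylate synthase, was at 142, 59.1 and 71.0 CPM in KMT2D-WT and at 80.6, 67.3, 46.9 and 40.2 CPM in KMT2D-KO cells kept in glucose. It overlapped over all libraries and was lower within each experiment (log2 fold change -0.72, SE 0.12, edgeR adjusted p = 0.00267). Upon deprivation it gave -0.70 (SE 0.18, edgeR adjusted p = 0.0151), and with close pairs summed -0.65 (edgeR adjusted p = 0.148). ENOSF1 and TYMSOS share 47.5% of its exonic bases, and without strand their reads cannot be told apart. RRM1, the large reductase subunit, fell with glucose (-0.23, edgeR adjusted p = 0.0426), but in none of the 7 fits that left out 1 library did this pass. TK1, a thymidine kinase, was higher in deprived KMT2D-KO than in deprived KMT2D-WT cells (0.31, SE 0.06, edgeR adjusted p = 0.00619).

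All 3 genes that restore chromatin on new DNA fell in KMT2D-KO cells kept in glucose. UHRF1, which brings the maintenance DNA methyltransferase to replicated DNA, was at 354, 386 and 366 CPM in KMT2D-WT and at 201, 246, 193 and 245 CPM in KMT2D-KO cells, with no overlap (log2 fold change -0.73, SE 0.11, edgeR adjusted p = 0.00185). Upon deprivation it was at 304, 167 and 157 CPM and at 170.2, 198, 98.8 and 89.7 CPM. The groups were apart within each experiment (log2 fold change -0.78, SE 0.08, edgeR adjusted p = 0.000297), and every left-out library kept both calls. CHAF1A and CHAF1B, subunits of the histone chaperone CAF-1, gave -0.27 and -0.41 with glucose (edgeR adjusted p = 0.0222 and 0.0113) and -0.01 and 0.17 without (adjusted p = 0.937 and 0.19). The CHAF1A call was lost when any KMT2D-WT library, or KO1 of experiment 2, was left out. That of CHAF1B was lost without the KMT2D-WT library of experiment 1.

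Among the G1/S regulators, E2F8, an E2F family repressor, fell in both conditions. It was at 70.1, 73.1 and 82.2 CPM in KMT2D-WT and at 37.4, 45.8, 36.4 and 46.9 CPM in KMT2D-KO cells kept in glucose (log2 fold change -0.84, SE 0.12, edgeR adjusted p = 0.00145). Upon deprivation it was at 55.3, 58.4 and 59.0 CPM and at 31.6, 26.0, 24.7 and 27.6 CPM (log2 fold change -1.10, SE 0.12, edgeR adjusted p = 0.000454). The groups did not overlap in either condition, and the deprived fall passed with close pairs summed (-1.03, edgeR adjusted p = 0.0293).
E2F1, an activator of S phase genes, was at 246, 223 and 189 CPM in KMT2D-WT and at 188, 183, 174 and 164 CPM in KMT2D-KO cells kept in glucose, the groups being apart by less than 1 CPM (log2 fold change -0.33, SE 0.09, edgeR adjusted p = 0.0222). Upon deprivation it gave 0.12 (SE 0.08, edgeR adjusted p = 0.257). CCNE2, a cyclin E gene, was lower in deprived KMT2D-KO than in deprived KMT2D-WT cells (-0.68, SE 0.12, edgeR adjusted p = 0.00323), with 37.1% of its exonic bases shared with other genes. CCNE1, the other cyclin E gene, gave 0.20 and 0.09 (edgeR adjusted p = 0.304 and 0.582).

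In all, 7 members fell in both glucose conditions, MCM5, CDC45, RNASEH2A, RRM2, TYMS, UHRF1 and E2F8, and MCM4 rose in both. The 7 are 12.5% of the members, near the 9.94% of all 16460 genes tested in both conditions that fell in both, and the 1 rise is 1.79%, against 11.3%. With close pairs summed, RNASEH2A, RRM2 and TYMS did not pass upon deprivation (edgeR adjusted p = 0.0616, 0.241 and 0.148). The 2 conditions have separate control libraries. Another 25 members were called in neither condition, namely MCM3, MCM6, MCM7, MCM10, ORC1, ORC3, ORC5, ORC6, GINS3, PCNA, RFC2, RFC4, RFC5, POLA1, POLA2, PRIM1, PRIM2, POLD1, POLD2, POLD3, GMNN, CCNE1, RPA1, RPA2 and RPA3. Per kb of exon, PCNA had the highest mean level in KMT2D-WT cells kept in glucose (183 CPM per kb) and RNASEH2A the lowest (1.52 CPM per kb).

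Whether the KMT2D-KO effect differed between glucose conditions was tested in a fit of all 14 libraries, as the effect without glucose minus that with glucose. The deprived library labelled KO1 of experiment 2 lay with line KO2 around RRM2, so the lines may be unevenly spread over the glucose conditions. Line and glucose then cannot be fully told apart in KMT2D-KO cells, also with close pairs summed. Of the 56 members 7 were higher (12.5%) and 1 was lower (1.79%), against 4.73% and 6.54% of all 18678 genes tested. CDT1 had the largest difference (log2 1.18, SE 0.15, edgeR adjusted p = 0.000742), at 1.19 in experiment 1 and 1.18 in experiment 2. CHAF1B (0.60, SE 0.12, edgeR adjusted p = 0.00907), RFC1 (0.52), MCM4 (0.49), E2F1 (0.47), MCM2 (0.45) and MCM5 (0.42) were the other higher ones. GINS1 was lower (-1.09, SE 0.19, edgeR adjusted p = 0.00533). CDT1, CHAF1B and GINS1 passed in all 14 fits that left out 1 library, and leaving out single libraries gave between 2 and 12 higher members. The count was 12 without the KO2 library of experiment 2 kept in glucose, and 6 lower and 11 higher without the deprived KO1 library of experiment 1. It was 2 to 4 without any KMT2D-WT library, either deprived KMT2D-KO library of experiment 2, or KO1 of experiment 2 kept in glucose. With close pairs summed CDT1 alone passed (1.15, edgeR adjusted p = 0.02), and GINS1 was at -1.06 (adjusted p = 0.059).

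Glucose deprivation for 6 h changed few members in KMT2D-WT cells. In experiment 2 all 4 libraries kept in glucose, and no deprived ones, were counted over both mates of each read pair, so in that experiment deprivation and the kind of library cannot be told apart. By edgeR's test 5 fell (8.93%) and 3 rose (5.36%), against 7.58% and 7.15% of all 17227 genes tested. CDC6 fell most, from 152, 197 and 180.3 CPM to 119, 111 and 110.2 CPM (log2 fold change -0.62, SE 0.10, edgeR adjusted p = 0.026). E2F8 (-0.37), ORC6 (-0.33), FEN1 (-0.27) and MCM4 (-0.24) were the other falls, and RPA3 (0.49), POLD2 (0.32) and RFC5 (0.25) rose. UHRF1 was at -0.88 (SE 0.21, edgeR adjusted p = 0.0506). None of the 8 calls passed with the close pairs summed, or when any 1 library of experiment 2 was left out, while without either library of experiment 1 there were 18 falls and 9 rises.

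In KMT2D-KO cells deprivation was followed by 8 falls (14.3%) and 10 rises (17.9%), against 16.0% and 14% of all 16057 genes tested. Since the deprived library labelled KO1 of experiment 2 lay with line KO2 around RRM2, line and deprivation cannot be fully told apart here. Summing the close pair does not change that. GINS1 fell from 52.9, 78.2, 63.9 and 80.2 CPM to 33.0, 27.2, 27.6 and 27.0 CPM, with no overlap (log2 fold change -1.28, SE 0.15, edgeR adjusted p = 0.00206). UHRF1 (-0.77), E2F8 (-0.62), CCNE2 (-0.60), FEN1 (-0.60), ORC6 (-0.54), CCNE1 (-0.47) and ORC4 (-0.35) fell as well. CDT1 rose from 93.7, 121, 99.7 and 122 CPM to 214, 229.8, 175 and 177 CPM, again with no overlap (0.83, SE 0.12, edgeR adjusted p = 0.00456).
POLD2 (0.51), MCM2 (0.50), RFC5 (0.48), TK1 (0.46), RRM1 (0.44), RFC1 (0.43) and MCM5 (0.41) rose, together with LIG1 (0.39) and CHAF1B (0.37). With close pairs summed 2 falls (ORC6 and GINS1) and 5 rises (MCM2, RFC1, POLD2, RRM1 and CDT1) passed. Leaving out the deprived library labelled KO1 of experiment 2 gave 2 falls and 5 rises, leaving out the deprived KO2 library of experiment 2 gave 3 and 2, and leaving out any of the libraries kept in glucose gave 3 to 5 falls and 5 to 13 rises. The KMT2D-KO and KMT2D-WT responses use the same libraries as the comparisons above, so their values restate the same measurements along the other axis.

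**Figure D4:**
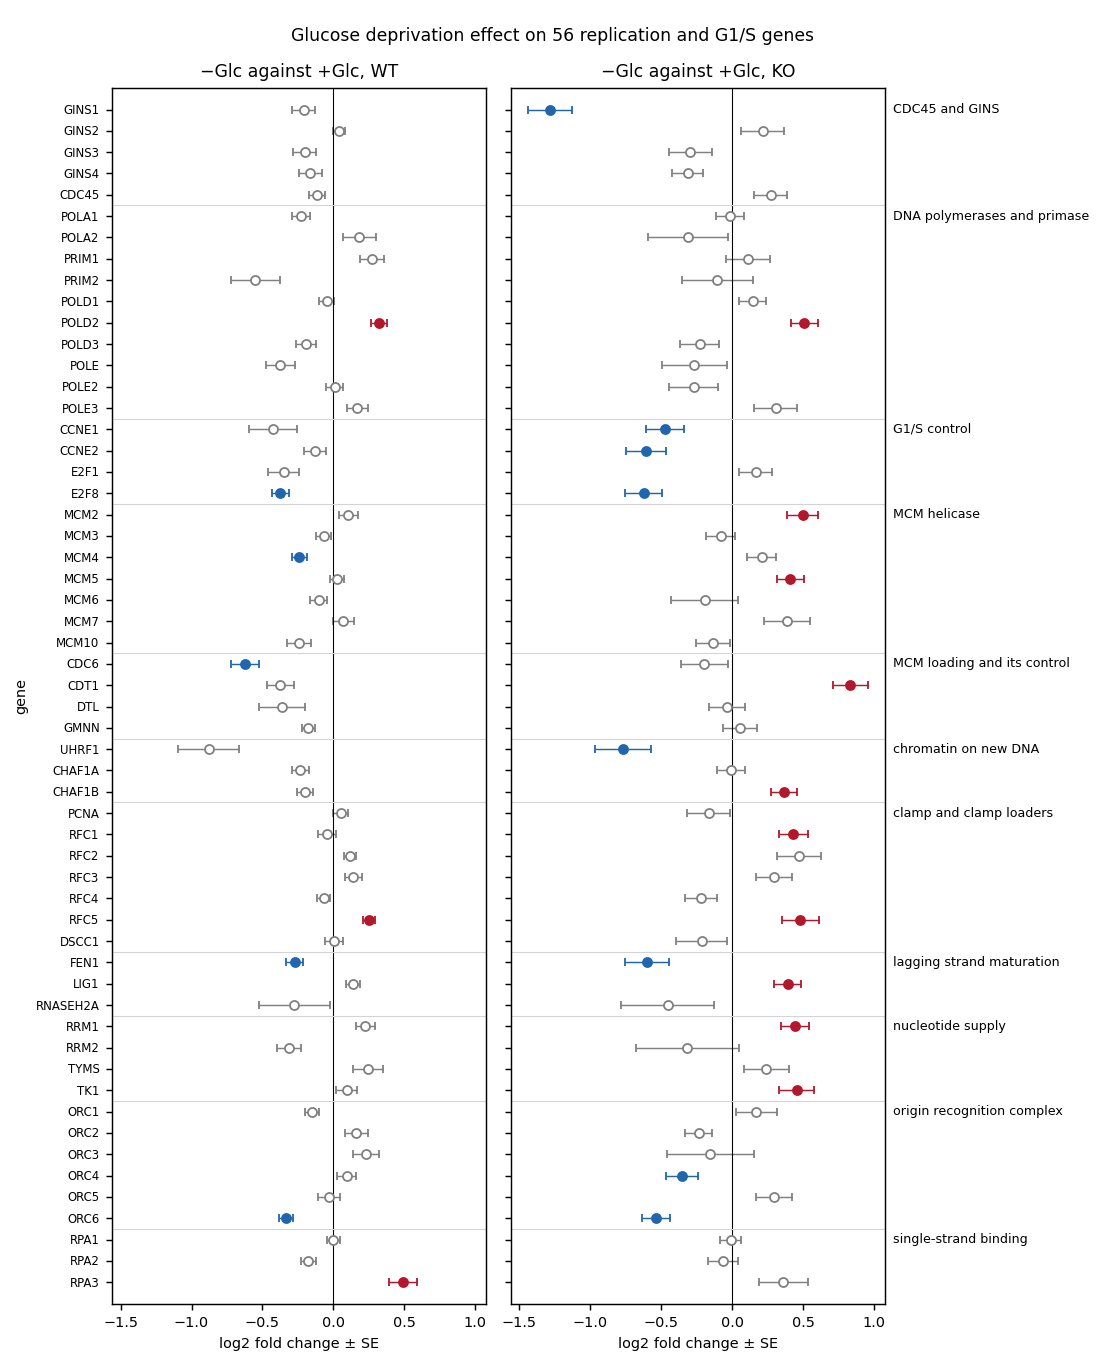
Log2 fold change (± SE) upon glucose deprivation (−Glc against +Glc) for the 56 genes, grouped by role, in KMT2D-WT (left) and KMT2D-KO (right) cells; filled blue points fell, filled red points rose and open points did not pass edgeR's test. CDT1 (0.83) and GINS1 (-1.28) are the extremes in KMT2D-KO cells, while CDC6 (-0.62) is the lowest filled point in KMT2D-WT cells.

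MCM5 and CDC45 both lie on chromosome 22 (35400134-35425431 and 19479457-19520612 in GRCh38), and other genes near them were also lower in KMT2D-KO cells. The median log2 fold change with glucose was -0.81 over 138 other tested genes within 5 Mb of MCM5 and -0.82 over 136 genes around CDC45. Upon deprivation it was -0.69 and -1.01. In each of the 8 KMT2D-KO libraries the 116 genes around MCM5 (median log2 ratio -0.75 to -0.54) and the 101 around CDC45 (-0.94 to -0.73) that were tested in both conditions were below KMT2D-WT. On chromosome 22 the median with glucose lay between -0.95 and -0.75 in every 3 Mb interval from 18 to 39 Mb, and between -0.10 and 0.23 from 39 to 51 Mb.
MCM4 (0.46) had a neighbour median of 0.46 over 20 genes with glucose, and 0.42 beside its own 0.93 without. By single KMT2D-KO library, the median log2 ratio of 17 neighbours tested in both conditions was 0.137 to 0.312 with glucose. It was 0.00099 to 0.475 without. MCM4 itself was at 0.204 to 0.682 and at 0.851 to 1.0. GINS1 had neighbour medians of 0.52 with glucose and 0.74 without, beside its own 0.48 and -0.63. RRM2 had -0.33 and -0.47, and POLE had -0.37 and -0.53. The neighbours of UHRF1 (-0.05 and 0.10), E2F8 (0.03 and 0.04) and CDT1 (0.05 and -0.07) had medians near 0, and those of TYMS were at 0.09 and -0.46. Over the 56 members, Pearson's r between a member's log2 fold change and its neighbours' median was 0.60 with glucose (Spearman's rho 0.49) and 0.44 without CDC45 and MCM5. Upon deprivation r was 0.21 (Spearman's rho 0.09), and 0.09 without CDC45 and MCM5 (rho 0.01). All points share the same libraries, and genes are not independent replicates. DNA copy number was not analysed here, and its part in these differences was not tested.

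**Figure D5:**
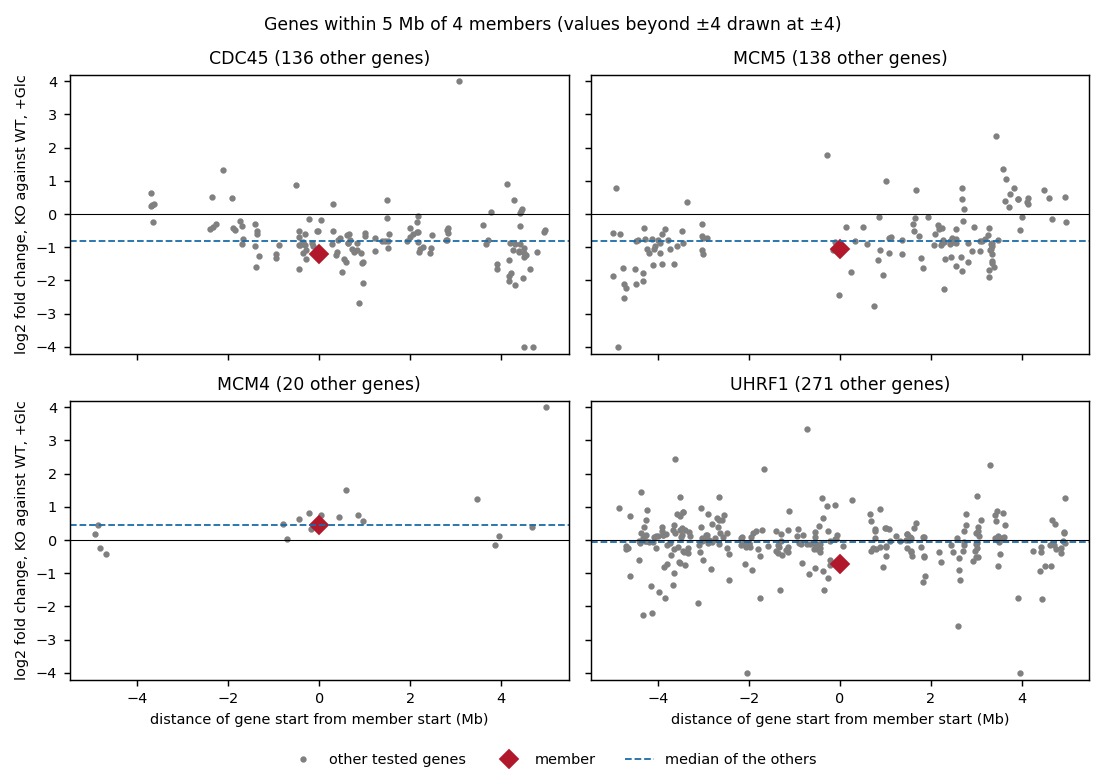
Log2 fold change of KMT2D-KO against KMT2D-WT cells kept in glucose for all tested genes within 5 Mb of 4 members, by distance of gene starts (Mb); the red diamond is the member and the dashed line the median of the others. The dashed line is at -0.82 around CDC45, -0.81 around MCM5, 0.46 around MCM4 and -0.05 around UHRF1, which itself is at -0.73.

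Other genes of replication and G1/S (50 genes of a list from general knowledge) gave 10 falls (20%) and 5 rises (10%) in KMT2D-KO cells kept in glucose, with a median of -0.09, against 11.7% and 13.0% of all genes. ATAD5, which unloads PCNA, fell from a mean of 71.7 to 19.4 CPM (-1.64, SE 0.10, edgeR adjusted p = 2.85e-05). ESCO2, a cohesin acetyltransferase, fell too (-0.76), and CDCA7 (0.75), E2F5 (0.60) and CHTF18 (0.38) rose. In deprived cells 15 were lower (30.0%) and 9 higher (18.0%) in KMT2D-KO than in KMT2D-WT cells, against 24.9% and 25.9% of all genes, with a median of -0.06. These were led by ATAD5 (-1.79), E2F2 (-1.52) and FBXO5 (-1.24) among the falls and by CDCA7 (0.82), POLE4 (0.66) and PCLAF (0.48) among the rises. In the difference of the KMT2D-KO effect, MCMBP, an MCM-binding protein gene, was the 1 gene called (0.46), or 2% of the list against 4.73% of all genes that were higher.
Deprivation gave 9 falls (18.0%) and 3 rises (6%) of these 50 genes in KMT2D-WT cells, against 7.58% and 7.15% of all genes, with E2F2 (-0.82), ASF1B (-0.50) and CLSPN (-0.44) lowest and DUT (0.38), DNA2 (0.24) and TIMELESS (0.21) highest. In KMT2D-KO cells 7 fell (14%) and 5 rose (10%), against 16.0% and 14% of all genes. The falls were led by E2F2 (-1.73), FBXO5 (-1.17) and CDC25A (-0.88), and the rises by MCMBP (0.41), RNASEH2C (0.40) and POLE4 (0.40).

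For comparison, 25 genes of mitosis and G2/M gave 7 falls (28.0%) and 1 rise (4%) in KMT2D-KO cells kept in glucose, against 11.7% and 13.0% of all genes (median -0.19). In deprived cells 13 of 24 tested were lower (54.2%) and 3 higher (12.5%) in KMT2D-KO than in KMT2D-WT cells, against 24.9% and 25.9% of all genes (median -0.42). In the difference of the KMT2D-KO effect 2 of 25 were lower (8%, against 6.54% of all genes) by edgeR's test. Deprivation gave 3 falls of 25 (12.0%, against 7.58%) in KMT2D-WT and 7 of 24 (29.2%, against 16.0%) in KMT2D-KO cells.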

How the data were processed

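PolyA RNA-seq of 14 SCC23 libraries was analysed from the gene counts that the authors deposited. Per the file headers, reads were counted with featureCounts 2.0.3 on the Ensembl 102 annotation of GRCh38, by gene name, as primary alignments without regard to strand, and the submitters' notes name HISAT2 as the aligner. The deposited counts are whole numbers and not normalized. In the 4 libraries of experiment 2 kept in glucose, reads of both mates were counted, so a fragment can enter as 2 reads, and 67.4 to 70.6% of low counts (1 to 10) were even there, compared with 37.4 to 42.7% in the others. Tests used the quasi-likelihood method of edgeR 4.0.16 under R 4.3.3 (filterByExpr at a minimum count of 10, TMM scaling, Benjamini-Hochberg adjusted p under 0.05 over all genes), with experiment as a block. Since the study itself used DESeq2 with no stated covariate, DESeq2 1.42.0 was run as an alternative. The experiment number in the labels marks a shared experiment, and differences between experiments correlated over genes between KMT2D-WT and KMT2D-KO cells (0.912 with glucose, 0.853 without). With glucose the experiments also differ in whether both mates were counted, so that correlation cannot tell a shared experiment from the kind of library. Nothing states that libraries of an experiment came from separate cultures, so p-values measure the spread between these libraries.

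The members, lists and tests were chosen with earlier results of these data known. Members described singly were, in each comparison, up to 8 in each direction ranked by size of change, if called and of equal sign in experiments 1 and 2, plus 22 members named whatever their values, and up to 3 per direction of the list of other genes. MCM5 upon deprivation, the remaining members and the choice of promoters and of neighbour windows were added after the values were seen. A gene that this rule names in the list of other genes is not reported here. In simulated data with known changes, 1 set per comparison, the share of false calls was above the nominal threshold for the KMT2D-KO effect in either condition and for the difference, and below it for deprivation. Alternatives are given in the closing section.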

Additional observations from a re-analysis of the deposited data

Results flagged for a closer look

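In 78 checks for a library far from the other 3 of its KMT2D-KO group (39 members in 2 glucose conditions), 8 stood out. All 8 were glucose-deprived libraries of experiment 1. The KO1 library stood apart upward for CDC6 (163 CPM), GINS1 (33.0 CPM), MCM10 (58.3 CPM), ORC1 (83.1 CPM), RPA3 (96.8 CPM) and RRM2 (544 CPM). The KO2 library stood apart upward for CHAF1A (117 CPM) and downward for DTL (56.2 CPM). The other 2 libraries of that group are the close pair of experiment 2, and all members share the same libraries. The count of 8 was therefore not set against a chance rate.

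The KMT2D-KO effect differed between glucose conditions, by the test of the difference itself, for 8 members. As log2 differences, without minus with glucose, these were MCM2 (0.45), MCM4 (0.49), MCM5 (0.42), CDT1 (1.18), GINS1 (-1.09), RFC1 (0.52), E2F1 (0.47) and CHAF1B (0.60). With close pairs summed CDT1 alone passed by edgeR.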

How the results depend on the processing

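Counts are of members called lower and higher by edgeR unless stated. The share of all genes called in these fits is not given. The counts therefore show how the members' calls shift, not how members differ from other genes. Without the experiment block the KMT2D-KO effect gave 4 and 0 with glucose, 2 and 2 without, and 0 and 1 for the difference, while deprivation gave 0 and 0 in KMT2D-WT and 3 and 1 in KMT2D-KO cells. Most calls depended on the pairing by experiment. CDC45, MCM5, UHRF1 and E2F8 with glucose, and E2F8, GINS1, MCM4 and CDT1 without, passed without it.

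Leaving out 1 library gave 5 to 17 lower and 0 to 5 higher with glucose, 8 to 24 and 7 to 18 without, 1 to 6 and 2 to 12 for the difference, 0 to 18 and 0 to 9 for deprivation in KMT2D-WT, and 2 to 12 and 2 to 13 in KMT2D-KO cells. With glucose, experiment 1 alone gave 1 and 0, experiment 2 alone 6 and 0, DESeq2 without experiment 7 and 0, line KO1 25 and 4, and line KO2 18 and 7. Without glucose, experiment 1 alone gave 0 and 0, experiment 2 alone 24 and 22, DESeq2 with experiment 14 and 15, DESeq2 without it 3 and 3, line KO2 24 and 17, and close pairs summed 5 and 4. The deprived libraries of experiment 2 are the close pairs alone, with little spread between them. For the difference, DESeq2 gave 3 and 11, experiment 1 alone 0 and 0, experiment 2 alone 1 and 10, and close pairs summed 0 and 1. Deprivation in KMT2D-WT gave 11 and 8 with DESeq2, 13 and 5 with no filter, 18 and 9 in experiment 2 alone and 0 and 0 with close pairs summed, and experiment 1 alone could not be fitted. In KMT2D-KO cells it gave 7 and 15 with DESeq2, 0 and 0 in experiment 1 alone, 11 and 13 in experiment 2 alone, and 2 and 5 with close pairs summed. RLE scaling gave 13 and 4 with glucose and 12 and 13 without. Halving the counts of both-mate libraries kept every count within 1.5 times. The cause of these shifts was not tested.

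KMT2D was at 0.37 with glucose in line KO2 alone (adjusted p = 0.00241). CDC6 upon deprivation was at -0.11 in experiment 2 alone (adjusted p = 0.00793), -0.13 in line KO2 alone (0.0286) and -0.16 without the KO1 library of experiment 1 (0.00137). Leaving out single libraries put CDC6 between -0.16 and 0.081.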
